A study of Mus musculus with 8 samples.

Results

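Acid-base transport by the proximal tubule was examined through 8 genes in RNA from whole mouse kidney, comparing controls with animals that carry a conditional knockout of Kdm1a. The genes were chosen by name (Slc4a4, Slc9a3, Slc9a3r1, Car2, Car4, Car12, Car14 and Slc38a3), and all 8 were found among the 49315 gene IDs of the count table. The study holds 8 polyadenylated RNA libraries of frozen kidney. The 4 control libraries, which the extraction protocol calls wild type, and the 4 knockout libraries differ by genotype alone in the labels. Kdm1a encodes LSD1, a histone demethylase of repressor complexes. The labels give neither age, sex nor strain, nor the recombinase that deletes the conditional allele or the cells in which it does so, so the share of kidney cells that lost the gene is not known from them. They do not say whether the libraries come from separate animals, and p-values then measure the spread between these libraries.

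The proximal tubule reclaims most of the bicarbonate that the glomerulus filters. Protons leave the cell through the apical sodium-proton exchanger NHE3 (Slc9a3), carbonic anhydrases on the membrane and in the cytosol interconvert bicarbonate and carbon dioxide on either side of that membrane, and bicarbonate leaves at the basolateral side through the sodium-bicarbonate cotransporter NBCe1 (Slc4a4). The same cells take up glutamine through SNAT3 (Slc38a3) and break it down to ammonia, which carries acid into the urine. NHERF1 (Slc9a3r1) is a PDZ scaffold protein that holds NHE3 and other transporters at the brush border.

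Libraries held between 19524945 and 28544511 counts. Levels are given as counts scaled to 1000000 per library after TMM normalization (CPM), and 1 count stood for 0.0346 to 0.0502 CPM. Kdm1a, the targeted gene, was lower in all 4 knockouts (90.9 to 95.3 CPM) than in all 4 controls (110 to 120 CPM), with −0.27 as its log2 fold change (SE 0.05, adjusted p 0.0194), and the knockout mean was 83.0% of the control mean. Its call held in 3 of 8 leave-one-out fits, those without control replicate 2, control replicate 4 or knockout replicate 3. Kdm1a overlaps Luzp1 on the opposite strand, and reads from shared bases cannot be told apart without strand. All 17 proximal tubule marker genes that were listed were detected and tested, and no marker list used here had a gene at 0 in all libraries. Over all 18485 genes tested, control replicate 2 and knockout replicate 3 lay next to each other on the first principal component (9.56 and 9.71), between the other controls (−78.7 to −52.4) and the other knockouts (48.3 to 68.4). Y-linked transcripts were high in 5 libraries, 3 controls and 2 knockouts, and low in control replicate 2 and knockout replicates 1 and 4. Xist, a transcript of female cells, was at 965, 1086 and 1047 CPM in the latter, and at 2.25 to 6.14 CPM in the other 5. By these transcripts, the sexes were not evenly split between the groups. The summed level of 11 adrenal genes reached 2720 CPM in 1 knockout (replicate 1), 373 CPM in another (replicate 4) and 150 CPM in 1 control (replicate 4), against 17.2 to 23.2 CPM in the other 5 libraries.

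Of the 8 genes, 6 were lower in the knockout at an adjusted p under 0.05 in edgeR's quasi-likelihood test (termed a call below), namely Slc9a3, Car4, Car2, Slc38a3, Slc9a3r1 and Slc4a4. The background is 8.27% of all genes tested called lower. Car12 (adjusted p 0.0730) and Car14 (adjusted p 0.249) were not called, and 7 of the 8 had a log2 fold change below 0. No member was called higher by edgeR, DESeq2 or limma-voom, and 0 were higher at an unadjusted p under 0.05 in edgeR, while 7 were lower at that level, where 18.6% of all genes tested were lower and 16.5% higher. The median log2 fold change over the 8 genes was −1.14, and that over all genes tested was 0.00. In bulk tissue, fewer cells of a type and less RNA per cell cannot be told apart.

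The number of calls depended on single libraries, and so did the share of all genes called lower. It was 7 without control replicate 2 (19.0% of all genes called lower) and 6 without knockout replicate 3 (9.30%). Leaving out control replicate 1, 3 or 4 left 1, 0 and 2 calls (1.28%, 0.928% and 1.83% of all genes), and leaving out knockout replicate 1, 2 or 4 left 1, 2 and 0 (1.12%, 1.47% and 0.230%). In each of these 8 fits the 7 genes kept a log2 fold change below 0, and 7 members were lower at an unadjusted p under 0.05, beside 13.3% to 23.9% of all genes. Without control replicate 2 and knockout replicate 3 together, 7 were called lower, beside 22.2% of all genes called lower. With the 3 libraries that carry adrenal transcripts left out, 0 members and 0 genes in all were called lower by edgeR. At an unadjusted p under 0.05, 5 members were lower, beside 5.97% of all genes. That fit set control replicates 1, 2 and 3 against knockout replicates 2 and 3. It had fewer libraries and kept both that lay between the groups, control replicate 2 and knockout replicate 3. The cause of its loss of calls was not tested. With the adrenal level as a term of the model, 2 members were called lower, beside 647 of all 18485 genes tested called lower. Among the 5 libraries with a high Y-linked level, 3 controls against 2 knockouts, 6 were called lower, beside 7.84% of all genes called lower. The libraries with a low level hold only 1 control, so no fit was made among them.

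**Figure D1:**
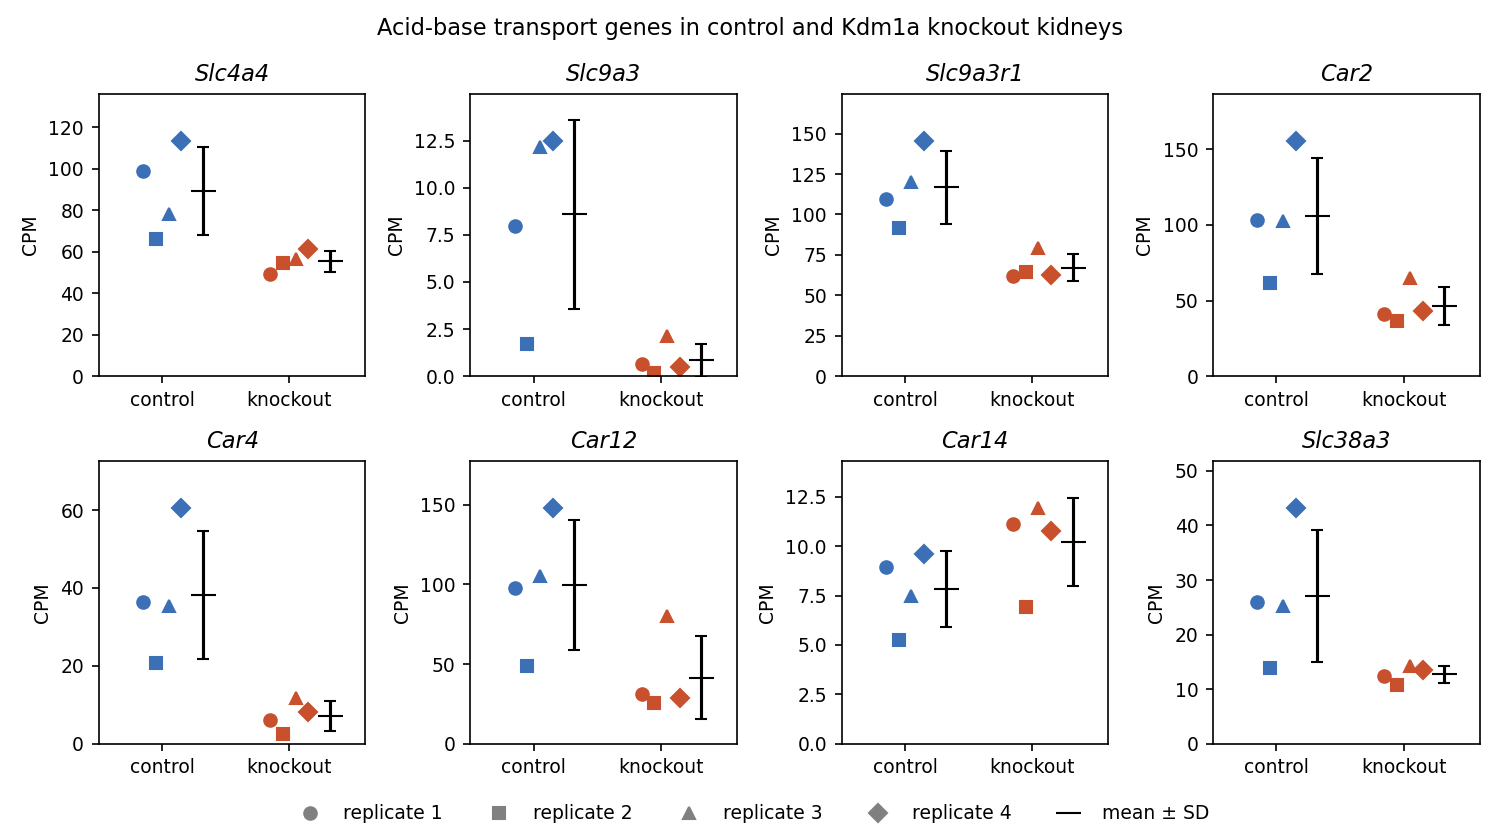
Level of each of the 8 genes in CPM (vertical axis, from 0) in the control and knockout libraries, 1 symbol per library, with the mean and SD of 4 libraries in black. Slc4a4, Slc9a3r1 and Car4 have no overlap between the groups, control replicate 2 (square) is the lowest control in every panel, and Car14 is the only panel with the higher mean in the knockouts.

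Bicarbonate exit at the basolateral membrane runs through Slc4a4 (ENSMUSG00000060961, chromosome 5, 88886818 to 89239653, plus strand, GRCm38). Its level was 98.8, 65.9, 78.4 and 114 CPM in control replicates 1 to 4, and 49.3, 54.7, 56.3 and 61.3 CPM in knockout replicates 1 to 4. All knockouts lay below all controls, and the knockouts differed among themselves by only 1.24-fold. The log2 fold change was −0.69 (SE 0.16, 95% interval −1.04 to −0.33, adjusted p 0.0270), the smallest of the 6 called members, and the knockout mean was 62.1% of the control mean. Among the members, 3 of 8 had groups that did not overlap, all with the knockouts below, where 18.9% of all genes tested had no overlap and 9.58% had none with the knockouts below. Of 8 leave-one-out fits, 6 lost the call, with adjusted p values no higher than 0.0792.

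RefSeq lists 2 start sites for Slc4a4, at 88887260 and, 140706 bases downstream inside the gene, at 89027966. The deposited counts sum over the whole gene, so transcripts from the 2 starts were not separated. Promoter windows of 300 bases (250 before to 50 after a start, RefSeq, GRCm38.p6) were listed for 6 of the 8 members, 7 windows in all. The 250 bases before a start are given for the downstream start of Slc4a4, for Slc9a3 and Car4, whose transcripts showed the largest differences, and for Car14, which was not called. Capitals mark matches to 4 strings searched on both strands, GTTAAT (the core of the HNF1 motif), CAAAGTCC (an HNF4 motif), TGACCT (a part-site of nuclear receptors) and CACGTG (an E-box).
Slc4a4, downstream start, chr5:89027716-89027965, plus strand: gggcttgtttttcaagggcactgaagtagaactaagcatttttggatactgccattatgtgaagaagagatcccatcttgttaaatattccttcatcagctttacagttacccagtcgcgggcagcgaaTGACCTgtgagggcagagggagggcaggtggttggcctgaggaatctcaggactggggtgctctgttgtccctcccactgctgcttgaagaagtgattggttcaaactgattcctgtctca
Slc9a3, chr13:74121163-74121412, plus strand: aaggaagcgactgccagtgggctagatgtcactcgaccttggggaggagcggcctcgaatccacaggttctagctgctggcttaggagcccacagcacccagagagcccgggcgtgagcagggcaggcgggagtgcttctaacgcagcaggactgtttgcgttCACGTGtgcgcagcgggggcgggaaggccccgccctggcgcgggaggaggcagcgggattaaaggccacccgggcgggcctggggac
Car4, chr11:84957504-84957753, plus strand: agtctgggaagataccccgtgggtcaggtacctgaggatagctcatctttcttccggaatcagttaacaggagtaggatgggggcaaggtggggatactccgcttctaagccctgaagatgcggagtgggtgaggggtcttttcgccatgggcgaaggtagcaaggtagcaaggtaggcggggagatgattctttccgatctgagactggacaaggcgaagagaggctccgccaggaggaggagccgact
Car14, chr3:95904686-95904935, minus strand: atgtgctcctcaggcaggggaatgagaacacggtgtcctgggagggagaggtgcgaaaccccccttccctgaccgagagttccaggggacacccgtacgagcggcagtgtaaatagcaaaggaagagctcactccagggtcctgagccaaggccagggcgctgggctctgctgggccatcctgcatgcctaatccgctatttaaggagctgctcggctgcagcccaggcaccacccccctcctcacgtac

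Over the 7 windows, TGACCT was found once, at −121 to −116 from the downstream start of Slc4a4, and CACGTG once, at −87 to −82 from the start of Slc9a3. These strings occur in 16.3% and 7.15% of all 32851 mouse windows of that length. GTTAAT, held by 7.10% of all windows, and CAAAGTCC, held by 1.42%, were not found in the 7 windows. A match is a string of letters and was not tested as a binding site.

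At the apical membrane, Slc9a3 (ENSMUSG00000036123, chromosome 13, 74121515 to 74166064, plus strand) showed the largest difference of the 8 genes. Controls had 7.99, 1.72, 12.1 and 12.5 CPM, and knockouts 0.634, 0.151, 2.11 and 0.468 CPM. Knockout replicate 3 lay above control replicate 2, which is the 1 crossing between the groups, and every other knockout was below every control. The knockout mean was 9.79% of the control mean. On the log2 scale the fold change was −3.30 (SE 0.77, 95% interval −5.03 to −1.57, adjusted p 0.0275). Knockout replicate 2 held only 3 counts of the gene, so its level is set within wide counting error. The call held in 2 of 8 leave-one-out fits, those without control replicate 2 (−3.63) and without knockout replicate 3 (−4.29).

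The deposited model of Slc9a3 covered 2490 exon bases, 45.2% of the 5504 exon bases that GENCODE M21 gives the gene, whereas the other 7 members had the M21 exon length. Reads from the remaining exon sequence were not counted for Slc9a3, in either group. Its CPM therefore stands lower against the other members than a full model would give, while the ratio between groups uses the same bases in all 8 libraries.

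The scaffold of the exchanger, Slc9a3r1 (ENSMUSG00000020733, chromosome 11, 115163341 to 115181181, plus strand), was the most abundant member per length of transcript. It had 110, 91.9, 120 and 146 CPM in controls and 61.7, 64.2, 79.5 and 62.8 CPM in knockouts, with no overlap. Its log2 fold change was −0.80 (SE 0.14, 95% interval −1.12 to −0.48), and its adjusted p of 0.0154 was the smallest among the members. The call held in 6 of 8 leave-one-out fits and was lost without control replicate 3 (adjusted p 0.0513) and without knockout replicate 4 (0.0609). The ratio of Slc9a3r1 to Slc9a3 CPM was 9.86 to 53.6 in controls and 37.7 to 426 in knockouts, overlapping through control replicate 2 and knockout replicate 3.

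Of the 4 carbonic anhydrases among the members, Car4 (ENSMUSG00000000805, chromosome 11, 84957786 to 84966044, plus strand) encodes an enzyme anchored by a lipid to the outer face of the brush border. Controls had 36.4, 20.6, 35.2 and 60.5 CPM, and knockouts 6.17, 2.36, 11.6 and 8.20 CPM. The groups did not overlap, and the knockout mean was 18.6% of the control mean. That is a log2 fold change of −2.41 (SE 0.46, 95% interval −3.44 to −1.39, adjusted p 0.0182). Leave-one-out values ran from −2.74 to −2.11, and 4 of 8 lost the call (without control replicates 1 or 3 or knockout replicates 1 or 4), with adjusted p no higher than 0.0617.

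Car2 (ENSMUSG00000027562, chromosome 3, 14886273 to 14900770, plus strand) encodes the cytosolic enzyme, which intercalated cells and red blood cells also contain. Controls had 103, 61.8, 103 and 156 CPM, and knockouts 41.1, 36.3, 64.6 and 42.8 CPM. Knockout replicate 3 was just above control replicate 2, the only crossing of the groups. Car2 had a log2 fold change of −1.19 (SE 0.27, 95% interval −1.81 to −0.58, adjusted p 0.0264), and only the leave-one-out fits without control replicate 2 or knockout replicate 3 kept the call (adjusted p no higher than 0.0852 in the others). Summed intercalated cell markers (8 of 8 genes matched) were at 61.4 to 222 CPM in controls and 15.7 to 108 CPM in knockouts. Summed red blood cell markers (10 of 11 matched, Slc4a1 standing in both lists) were at 398 to 821 CPM in controls and 456 to 1398 CPM in knockouts. The part of either cell type in the Car2 result was not tested.

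Car12 (ENSMUSG00000032373, chromosome 9, 66713686 to 66766845, plus strand) encodes a membrane-spanning enzyme. It stood at 97.7, 48.5, 105 and 148 CPM in controls and at 31.3, 25.4, 80.2 and 29.0 CPM in knockouts. Knockout replicates 1, 2 and 4 were below all controls, but knockout replicate 3 was above control replicate 2. Its difference on the log2 scale was −1.27 (SE 0.43, 95% interval −2.23 to −0.30), with an adjusted p of 0.0730. Leaving out control replicate 2 gave a call (−1.49, adjusted p 0.0170), as did leaving out knockout replicate 3 (−1.79, 0.0167). DESeq2 (adjusted p 0.0498) and limma-voom (adjusted p 0.00194) also called it lower. Markers of several nephron segments were highest among the knockouts in that library. Principal cell markers (6 of 6 matched) summed to 827 CPM in knockout replicate 3, against 126 to 204 CPM in the other knockouts and 367 to 1098 CPM in controls, and intercalated cell markers to 108 CPM there, against 15.7 to 43.3 CPM in the other knockouts. Thick ascending limb markers (6 of 6 matched) summed to 312 CPM there, against 14.4 to 56.7 CPM in the other knockouts, and proximal tubule markers to 450 CPM, against 59.2 to 271 CPM. Their part in the level of Car12 was not tested.

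Car14 (ENSMUSG00000038526, chromosome 3, 95897768 to 95904691, minus strand), encodes another membrane-spanning enzyme of the proximal tubule. Controls had 8.93, 5.24, 7.51 and 9.59 CPM, and knockouts 11.1, 6.93, 11.9 and 10.8 CPM. Knockout replicates 1, 3 and 4 were above all controls and knockout replicate 2 was within their range. The log2 fold change was 0.39 (SE 0.23, 95% interval −0.13 to 0.90, adjusted p 0.249), an interval that leaves out a loss as large as that of any called member. It was above 0 and not called in all 20 alternative fits, with values from 0.13 to 0.53. The exons of Car14 share 445 of their 2543 bases with Aph1a on the opposite strand, and no source says that strand was used in counting, so reads of this stretch cannot be told apart. Aph1a, at 89.7 ± 8.66 CPM in controls and 74.2 ± 4.20 CPM in knockouts (mean ± SD, n = 4 each), had a log2 fold change of −0.27 (adjusted p 0.0532). The ratio of Car14 to Car4 CPM was 0.159 to 0.254 in controls and 1.03 to 2.94 in knockouts, without overlap.

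Ammonia production depends on glutamine uptake, for which Slc38a3 (ENSMUSG00000010064, chromosome 9, 107650634 to 107669530, minus strand) is a basolateral transporter. Controls had 25.9, 13.8, 25.3 and 43.2 CPM, and knockouts 12.3, 10.7, 14.3 and 13.5 CPM. The knockouts lay close together, within 1.33-fold, and knockout replicate 3 was above control replicate 2. The log2 fold change was −1.09 (SE 0.29, 95% interval −1.74 to −0.43, adjusted p 0.0388). The call held in 1 of 8 leave-one-out fits (without control replicate 2, −1.30), the fewest of the 6 called members, and was lost when the Y-linked level was a term of the model (adjusted p 0.0778).

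Per kilobase of deposited exon length, the order in controls was Slc9a3r1 (60.6 ± 11.7 CPM per kilobase), Car2 (43.7 ± 15.9), Car4 (19.4 ± 8.40), Car12 (13.1 ± 5.36), Slc4a4 (8.25 ± 1.96), Slc38a3 (5.13 ± 2.29), Slc9a3 (3.45 ± 2.02) and Car14 (3.07 ± 0.757; mean ± SD, n = 4). Neighbours in this order differed by less than their summed SDs in every pair. In knockouts the levels per kilobase were 34.8 ± 4.35 for Slc9a3r1, 19.1 ± 5.20 for Car2, 5.45 ± 3.41 for Car12, 5.12 ± 0.455 for Slc4a4, 4.01 ± 0.879 for Car14, 3.61 ± 1.97 for Car4, 2.41 ± 0.295 for Slc38a3 and 0.338 ± 0.349 for Slc9a3. Car4 thus moved from the third place to the sixth, and Car14 from the last to the fifth. From Car12 to Car4 in the knockout order, neighbours again differed by less than their SDs.

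**Figure D2:**
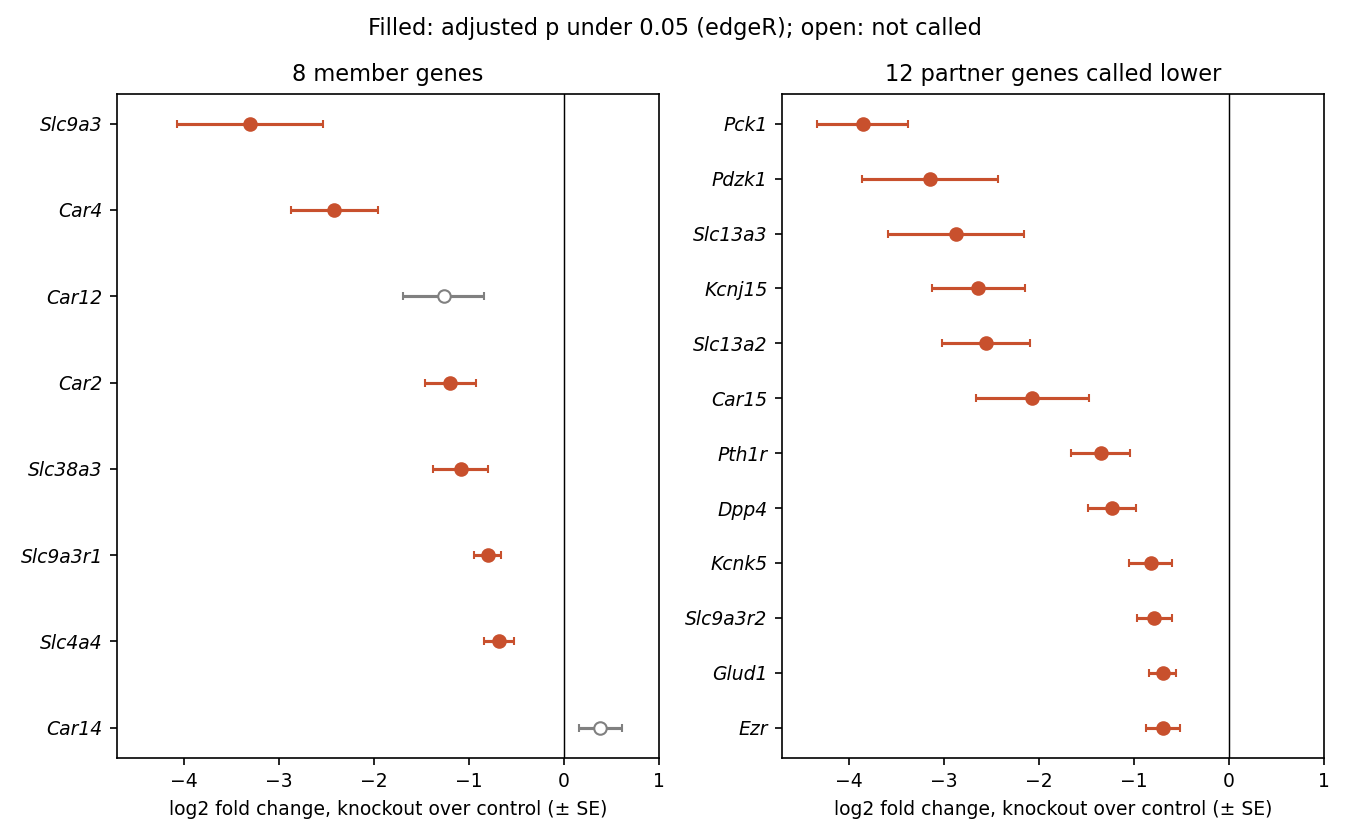
Log2 fold change of knockout over control (horizontal axis, bars ± SE) for the 8 member genes and for the 12 called of 23 partner genes of proximal acid and ammonia handling, each ordered by value; partners that were not called are not drawn. Filled points are called (adjusted p under 0.05), with Slc9a3 at −3.30 and Pck1 at −3.85 farthest to the left, and Car14 at 0.39 the only member to the right of 0.

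Other genes of proximal acid and ammonia handling were read from a list of 23 genes, all of them tested. Of these, 12 were called lower and 11 were not called, beside 8.27% of all genes called lower. At an unadjusted p under 0.05, 13 were lower and 0 higher, beside 18.6% and 16.5% of all genes, and 21 had a log2 fold change below 0. Their median was −0.70, beside 0.00 over all genes. Single libraries moved the count of 12. It was 15 without control replicate 2 and 12 without knockout replicate 3, and 2, 2 and 5 without control replicates 1, 3 and 4, and 1, 4 and 1 without knockout replicates 1, 2 and 4. It was 7 with the Y-linked level as a term of the model, 6 with the adrenal level and 0 without the 3 libraries that carry adrenal transcripts.

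Pck1, which encodes the cytosolic PEP carboxykinase that consumes the carbon of glutamine in gluconeogenesis, had 171, 44.8, 142 and 191 CPM in controls and 11.1, 4.27, 10.3 and 12.1 CPM in knockouts, with no overlap (log2 fold change −3.85, SE 0.48, adjusted p 0.00724). All 8 leave-one-out fits kept the call, which was lost without the 3 libraries that carry adrenal transcripts (−4.01, adjusted p 0.249). Glud1, the glutamate dehydrogenase that releases ammonia in mitochondria, was at 275 to 456 CPM in controls and 206 to 261 CPM in knockouts (−0.70, adjusted p 0.0205).

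Several partners of NHE3 at the brush border were called lower. Pdzk1, a scaffold with several PDZ domains, was at 28.0 to 187 CPM in controls and 1.51 to 20.9 CPM in knockouts (−3.14, SE 0.72, adjusted p 0.0264). Dpp4, a peptidase known to associate with NHE3, was at 92.4 to 202 CPM and 42.9 to 77.1 CPM (−1.23, SE 0.25, adjusted p 0.0207). Slc9a3r2 and Ezr, picked after their values were seen, encode a second NHERF scaffold and ezrin, which ties scaffolds to actin, and were called at −0.78 (adjusted p 0.0286) and −0.69 (adjusted p 0.0345). Chp1, a small calcium-binding cofactor of sodium-proton exchangers, was not called (−0.19, adjusted p 0.166), nor was Slc9a8, the exchanger NHE8 (46.3 ± 4.09 and 49.9 ± 1.30 CPM, 0.11, adjusted p 0.321).

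Among the other partners, Slc13a2, the apical citrate and dicarboxylate transporter, was at 1.48 to 5.77 CPM in controls and 0.380 to 1.003 CPM in knockouts (−2.55, SE 0.46, adjusted p 0.0164). Kcnj15, a potassium channel subunit, was at 20.2 to 80.2 CPM and 2.91 to 12.9 CPM (−2.64, SE 0.49, adjusted p 0.0175). Neither overlapped between the groups, where 9.58% of all genes tested had no overlap with the knockouts below. Both were named because they were called, so this is no separate support. Ahcyl1, which encodes the NBCe1 regulator IRBIT, was not called and differed little (235 ± 6.57 and 233 ± 10.9 CPM, −0.01, adjusted p 0.882).

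The carbonic anhydrase family outside the 4 members held 12 genes, of which 9 were tested, with a median of −0.11. Car15, a membrane-anchored enzyme, was called lower (1.53 to 6.59 CPM in controls, 0.402 to 1.52 CPM in knockouts, −2.07, SE 0.59, adjusted p 0.0474). It stands in the partner list too, and its call held in 2 of 8 leave-one-out fits. Car11, a relative without catalytic activity, was called higher, with 9.59, 12.5, 9.40 and 9.45 CPM in controls and 17.6, 20.5, 15.0 and 19.2 CPM in knockouts (0.82, SE 0.14, adjusted p 0.0143), and kept the call in 6 of 8 leave-one-out fits. Higher calls made up 6.61% of all genes tested. The other 7 tested relatives were not called. Without control replicate 2 the family had 4 calls, and without control replicate 3 or knockout replicate 4 it had 0.

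Relatives of the 3 transporters in the Slc4, Slc9 and Slc38 families (27 genes, 26 tested) had a median of 0.13, and 17 lay above 0. Of these, 3 were called higher, beside 6.61% of all genes. Slc38a2, a broadly expressed glutamine and alanine transporter, went from 246 to 277 CPM in controls to 302 to 357 CPM in knockouts (0.37, SE 0.07, adjusted p 0.0183). Slc4a3, an anion exchanger, went from 46.2 to 50.3 CPM to 54.8 to 73.1 CPM (0.43, SE 0.09, adjusted p 0.0225), and Slc9a5, a sodium-proton exchanger, from 8.96 to 11.8 CPM to 12.7 to 18.3 CPM (0.61, SE 0.14, adjusted p 0.0270). None of the 3 overlapped between groups, all with the knockouts above. Of all genes tested, 18.9% had no overlap in either direction, and 9.58% had none with the knockouts below. The 3 were named because they were called, so this is no separate support. The count was 8 without control replicate 2 and 5 without knockout replicate 3, and 0 or 1 in the other 6 leave-one-out fits.

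Acid and base secretion farther along the nephron was read from 15 genes, which include most of the intercalated cell markers. Of these, 2 were called lower, beside 8.27% of all genes, with a median of −1.51. Atp6v0a4, a proton pump subunit shared by proximal and intercalated cells, was at 19.98 to 111 CPM in controls and 5.92 to 27.5 CPM in knockouts (−2.33, SE 0.56, adjusted p 0.0298), and Rhbg, an ammonia transporter, at 1.90 to 8.04 CPM and 0.251 to 1.80 CPM (−2.53, SE 0.67, adjusted p 0.0384). At an unadjusted p under 0.05, 10 of the 15 were lower, beside 18.6% of all genes. The count of calls was 8 without control replicate 2, 10 without knockout replicate 3 and 0 in each of the other 6 such fits, where 4 to 9 were lower at an unadjusted p under 0.05.

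**Figure D3:**
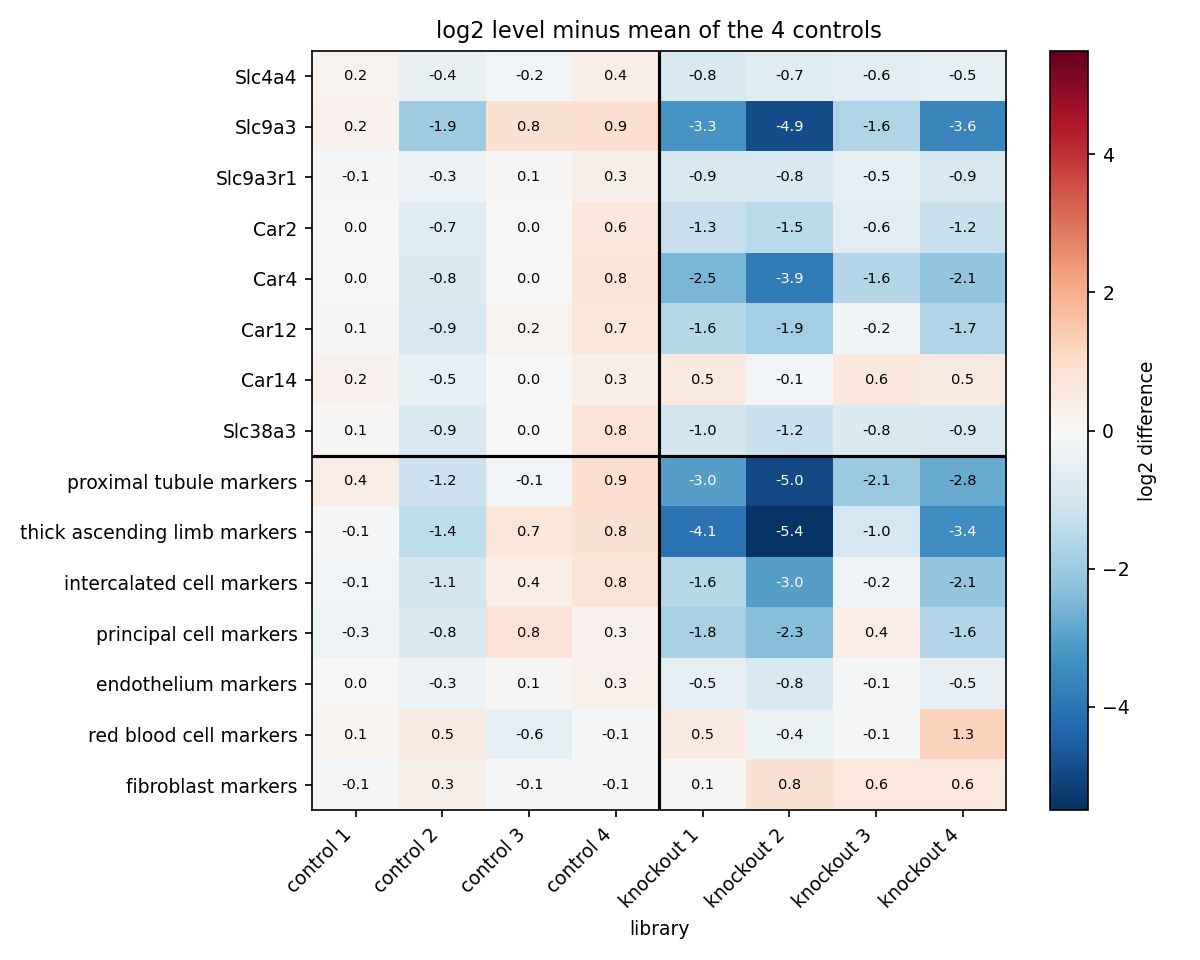
Log2 level in each library (columns) minus the mean of the 4 controls, for the 8 genes (log2 CPM with a prior count of 2) and for summed marker genes of 7 cell types (rows). Blue is lower and red higher, and the proximal tubule row runs from −4.98 to −2.06 in the knockouts. All knockout values of Slc4a4, Slc9a3r1, Car2, Car12, Car14 and Slc38a3 lie above that range, and those of Slc9a3 and Car4 reach into it.

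Members were set beside the proximal tubule itself. The 17 proximal tubule markers, none of them a member, were all called lower, beside 8.27% of all genes tested. Their median log2 fold change was −3.06. The list was chosen with earlier results of these data known. Their summed level was 2507, 835, 1704 and 3426 CPM in controls and 231, 59.2, 450 and 271 CPM in knockouts, so that the knockout mean was 11.9% of the control mean. Among other marker lists, thick ascending limb markers stood at 14.6% of the control mean (4 of 6 called lower, median −2.43). Podocyte markers stood at 66.4% (2 of 6 called lower, median −0.98). Nephron progenitor markers stood at 107% (2 of 6 called lower, median 0.23). Fibroblast markers stood at 143% (2 of 7 called higher, beside 6.61% of all genes, median 0.53). The part of these cell types in the members' levels was not tested. Slc9a3 at 9.79% and Car4 at 18.6% were the members nearest to the 11.9% of the proximal tubule markers, and Slc4a4 and Slc9a3r1 kept 62.1% and 57.4%. As a share of the summed markers in the same library, Slc9a3 was at 0.206% to 0.713% in controls and 0.172% to 0.469% in knockouts, which overlap. Slc4a4 was at 3.32% to 7.90% in controls and 12.5% to 92.4% in knockouts. The other 6 members were likewise higher in all knockouts than in all controls on this scale, Car4 by the narrowest margin (1.45% to 2.47% against 2.58% to 3.99%). The summed markers themselves fell to 11.9% of control, so any gene that fell less tends to rise on this scale. How many of all genes do so was not counted. These shares describe the libraries and were not tested.

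**Figure D4:**
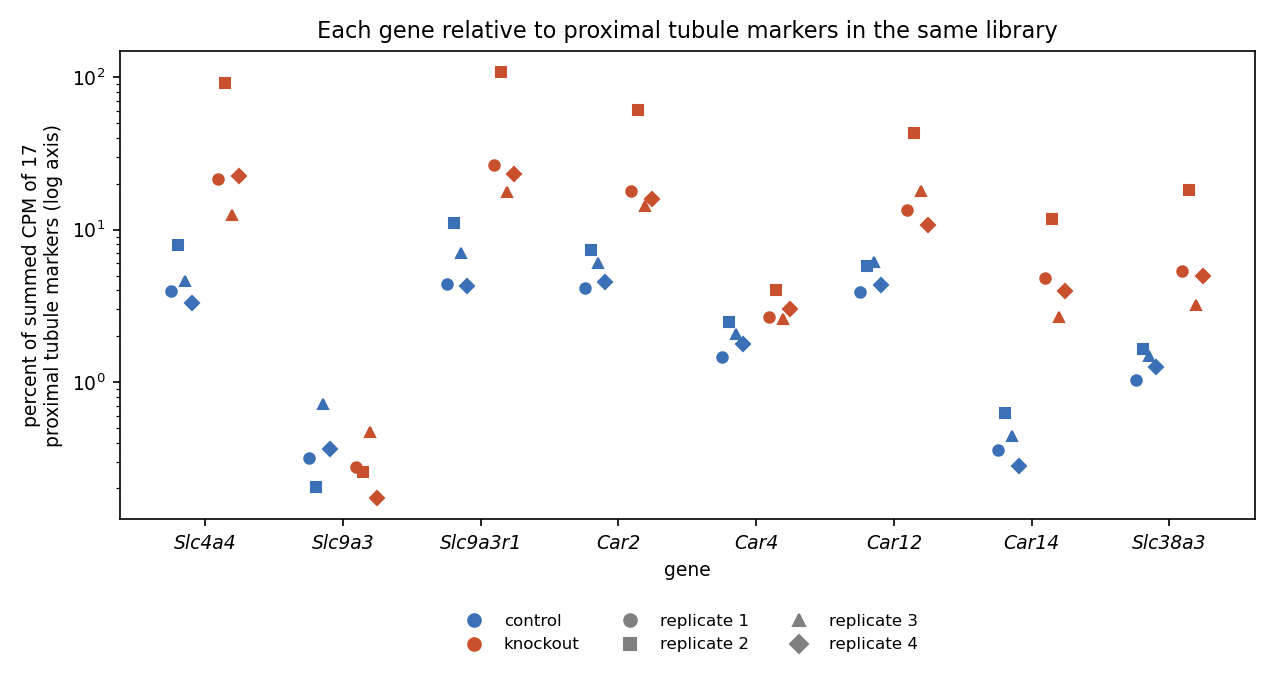
Level of each gene as a percent of the summed CPM of 17 proximal tubule markers in the same library (vertical log axis), 1 symbol per library. Slc9a3 is the only gene whose groups overlap, at 0.206% to 0.713% in controls and 0.172% to 0.469% in knockouts, and knockout replicate 2 is the highest library for each of the other 7.

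Across the 8 libraries, the 7 members other than Car14 followed one another, with Pearson r of log2 CPM between 0.823 (Slc4a4 with Car12) and 0.980 (Slc9a3r1 with Car2). Car14 had an r between −0.209 and 0.0721 with the others. The points share library, depth and genotype group, so r is given as a description. Control replicate 4 was the highest library for each of those 7 genes, and control replicate 2 the lowest control for all 8. Control replicate 2 is also the 1 control with a low Y-linked level, and its place and its Y-linked level cannot be told apart.

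The genes most like each member were taken as the 2 with the highest r among 12081 genes of at least 5 CPM. For Slc9a3 these were Acss1, an acetyl-CoA synthetase of mitochondria (r 0.997, log2 fold change −1.76), and Sept4, a septin (r 0.997, −1.11). For Car4 they were Cldn2, the claudin of the leaky proximal tight junction (r 0.997, −3.09, adjusted p 0.0186), and Slc22a19, an organic anion transporter (r 0.997, −4.90, adjusted p 0.0168). For Slc9a3r1 they were Chpt1 and Nudt19 (r 0.998 and 0.997, −0.98 and −0.97), for Slc4a4 Qdpr and Mrps21 (r 0.995 and 0.993, −0.59 and −0.33), and for Car2 Uqcrc1 and Cib1 (r 0.997 for both, −0.74 and −0.88). Car12 was nearest to Plpp2 and Eng (r 0.997 and 0.996, −0.70 and −0.65, neither called), and Slc38a3 to Psmc4 and Nus1 (r 0.998 for both, −0.29 and −0.39, neither called). Car14 had no gene so close, the nearest being Itm2c and Anxa3 (r 0.927 and 0.925, 0.12 and 0.19, neither called).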

How the data were processed

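The deposited tables hold raw counts of reads for each gene, beside exon positions and exon length, per the file headers, and were not normalized. The submitters' processing notes name Trimmomatic 0.36, STAR 2.5.2b, featureCounts of Subread 1.5.2, DESeq2 and GRCm38. How strand and multi-mapping reads were treated is not given in the sources used here. The series table matched the 8 library tables in all cells (0 differed), and every entry named a gene. Symbols came from GENCODE M21 (48970 IDs matched).

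Counts of the 18485 genes kept by filterByExpr were TMM-scaled and tested in edgeR 4.0.16 (R 4.3.3) by quasi-likelihood, without covariates. P-values were adjusted by Benjamini-Hochberg over all genes tested, and 0.05 was the threshold. Alternatives used DESeq2 1.42.0, limma 3.58.1 (voom with sample weights), other scalings, filters, covariates and sets of libraries. The adrenal covariate and the fit without adrenal-bearing libraries were chosen after seeing the data. Pipelines were tested on simulated data. The labels do not say whether replicate numbers pair the samples, and the main fit did not pair them. The chi-square of counts per degree of freedom was at least 11.9 between any 2 libraries, so none was present more than once.

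Named genes are the 8 members, Kdm1a, the 2 genes most like each member, and up to 6 called genes per list. The members and lists were chosen with earlier results of these data known. Genes named as not called, and those said to be picked later, fall outside this rule. Protein sequences were not used here.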

Additional observations from a re-analysis of the deposited data

Results flagged for a closer look

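In groups of 4 libraries, a library was picked out where its gap to the nearest other exceeded 0.829 of the group's range. Of 80 groups checked (2 for each gene with its own fit), 6 were picked out, where chance gives about 1 in 20. Slc9a3r1 was at 79.5 CPM in knockout replicate 3, against 61.7 to 64.2 CPM in the other knockouts. Car12 was at 80.2 CPM in the same library, against 25.4 to 31.3 CPM. The likeness genes Chpt1 (92.6 CPM, others 71.5 to 72.6), Nudt19 (30.6 CPM, others 22.8 to 23.6) and Plpp2 (45.6 CPM, others 25.9 to 29.2) were also high there. They were picked for following Slc9a3r1 or Car12 over the same libraries, so a shared high library follows from that choice. The 6 are therefore not separate findings, and the 1 in 20 does not apply to them as independent groups. Car11 was at 12.5 CPM in control replicate 2, against 9.40 to 9.59 CPM in the other controls.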

How the results depend on the processing

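All 8 members kept the sign of their log2 fold change in all 20 alternatives, and depth limits only Slc9a3 (3 counts in knockout replicate 2). Leaving out each library gave from 153 to 7084 called genes in all, 0 to 7 members lower, 1 to 15 partners lower, 0 to 10 distal genes lower, 0 to 8 paralogues higher, 0 to 4 other carbonic anhydrases called, and −0.29 to −0.24 for Kdm1a. DESeq2 called 4494 genes and 5 distal genes. Limma-voom called 8302 genes, 12 distal genes, 5 carbonic anhydrases and 9 paralogues. Without control replicate 2 and knockout replicate 3 there were 7903 genes, 12 distal genes, 6 carbonic anhydrases and 8 paralogues. The Y-linked covariate gave 7 partners, 1 distal gene and 1 carbonic anhydrase. The adrenal covariate gave 1265 genes, 2 members (Slc9a3r1 and Car4), 6 partners, 0 distal genes and 1 carbonic anhydrase. Without the 3 libraries that carry adrenal transcripts, 1 gene in all was called by edgeR (2378 at an unadjusted p under 0.05) with 0 in each list, and Kdm1a was at −0.29 (adjusted p 0.325). Among libraries with a high Y-linked level it was at −0.28 (adjusted p 0.0562). With the replicate block, 3229 genes, 7 members and 10 distal genes were called. The 4 same-numbered pairs had correlations of deviations of −0.11, 0.33, 0.23 and −0.06, and pairs of unlike number −0.47 to 0.40. These few values cannot decide whether the numbers pair the samples. The cause of these shifts was not tested, beyond there being fewer libraries where some were left out.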
